A study of Mus musculus with 32 samples.

Results

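Among DN1 thymocytes of the E15.5 embryonic mouse thymus that lacked the ID2 reporter, cells with the BCL11b reporter were set against cells without it. DN1 is the earliest of the thymocyte stages that carry neither CD4 nor CD8. The comparison rests on 3 BCL11b+ID2- and 3 BCL11b-ID2- libraries, 6 of the 32 libraries of the series, chosen by their labelled gate and stage. All 6 came from mice of one strain, labelled 5x polychromILC, with no treatment named in the labels and with the cells isolated by flow sorting. As the strain is shared by both gates, nothing in the comparison tests an effect of the reporter alleles themselves. The labels do not say whether a gate's libraries stem from different animals or litters, so the p-values here speak only to library-to-library spread, part of which may be technical. The same fit held 8 further E15.5 libraries, namely 3 BCL11b+ID2+, 3 BCL11b-ID2+ and 2 DN2 libraries. The same gates at E19.5, again with 3 libraries each, are given beside the E15.5 values, but the stages were normalised in separate tables and their levels were not compared.

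BCL11b is a zinc-finger transcription factor switched on as thymus-seeding progenitors commit to the T-cell lineage, and it helps to shut off their access to other fates. Progenitors that have just entered the thymus still carry regulators of stem and myeloid cells, such as BCL11a, MEF2C and PU.1, while Notch signals, TCF1, LEF1, GATA3 and ETS1 build the T-cell programme. ID2 binds E proteins and blocks their DNA binding. It is high in innate lymphoid cells and their precursors.

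All values are reads normalised by the authors with DESeq2, called normalised reads here, and log2 differences are BCL11b+ID2- minus BCL11b-ID2- on log2(value + 1). Reads in nuclear genes came to 3393061 to 6245470 in the BCL11b+ID2- libraries and 5634612 to 6224566 in the BCL11b-ID2- libraries. Mitochondrial ribosomal RNA took 50.8 to 76% and 65.6 to 70.1% of all reads. The BCL11b+ID2- libraries detected 9491 to 10399 nuclear genes and the BCL11b-ID2- libraries 10785 to 12131, with no overlap. Once every library was thinned to 3393061 nuclear reads, the counts were 9260 to 10176 against 10072 to 11639, so the gates overlapped by a small margin. Replicates spread widely: the median SD between libraries of a gate was 1.97 log2 units, against 0.659 at E19.5. Of genes that every cell uses, Actb stayed between 6026 and 8773 in the 6 libraries, while Tbp ran from 157 to 9570 and Gapdh from 0 to 648. These 3 were chosen after their values were seen. For that reason levels are given library by library, in the order of the replicate numbers 1, 2 and 3, and a value of 0 means only that the gene is listed at 0.

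**Figure D1:**
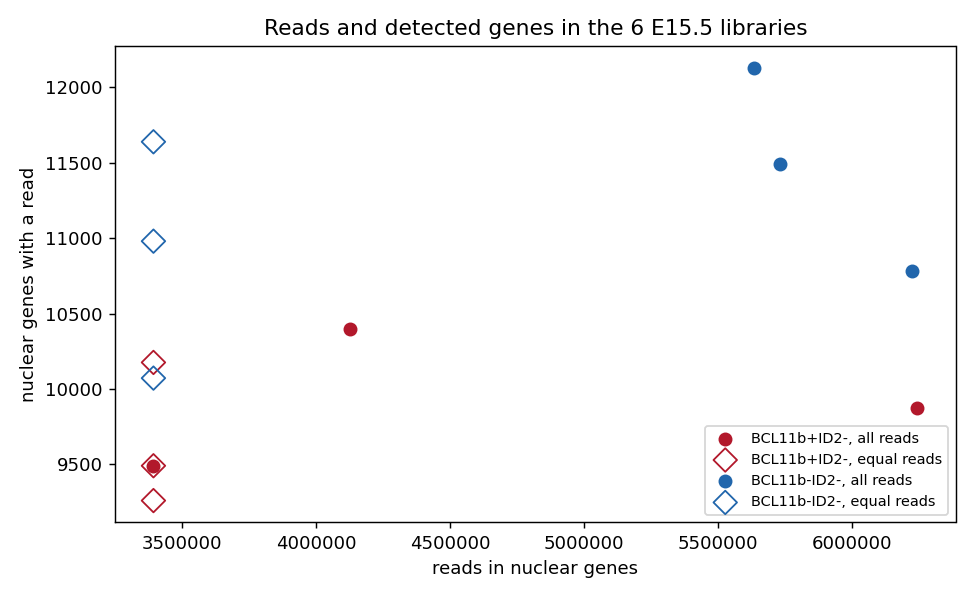
Nuclear genes with at least 1 read (vertical axis) against reads in nuclear genes (horizontal axis) for the 3 BCL11b+ID2- (red) and 3 BCL11b-ID2- (blue) libraries. Filled circles are all reads and open diamonds are the same libraries thinned to 3393061 reads. The red circles lie between 9491 and 10399 and the blue ones between 10785 and 12131, and after thinning the highest red diamond (10176) passes the lowest blue one (10072).

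The sorted gene followed the gates. Bcl11b (chromosome 12, 107910403 to 108003602, GRCm38, minus strand) stood at 1488, 927 and 4467 normalised reads in the BCL11b+ID2- libraries and at 6.39, 39.6 and 20.9 in the BCL11b-ID2- libraries. The gates did not overlap, and the lowest positive library was far above the highest negative one. Since the reporter chose the cells, this is a check of the labels and not a result. Id2, by contrast, was low in both gates, at 3.64, 4.35 and 0 against 126, 38.9 and 17.5. All 3 BCL11b-ID2- libraries lay above all BCL11b+ID2- libraries, although both gates are labelled ID2-negative (log2 difference -3.96 ± 1.80 SE, limma adjusted p = 0.701). The ID2-positive gates held 85 to 2771, so the highest value of the BCL11b-ID2- gate, 126, reached past the lowest value of the positive ones.

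Across all genes, the one that passed the test was Ets1, the transcription factor of the ETS family needed for thymocyte development (chromosome 9, 32636221 to 32757820, GRCm38). Its values were 1743, 727 and 761 normalised reads in BCL11b+ID2- cells and 4.97, 23.8 and 22.9 in BCL11b-ID2- cells. The positive libraries were 62.5-fold higher by mean, and the gates lay far apart. Ets1 rose by 6.02 ± 1.04 (log2, SE, limma adjusted p = 0.0479). That call stood close to the threshold: it was lost when any 1 of the 6 libraries was left out (adjusted p from 0.0735 to 0.318) and with edgeR on whole reads (adjusted p = 0.0502), within a range of 8.67e-10 (DESeq2) to 0.409 (the 6 libraries fitted alone) over all alternatives. The size held in each of those fits, with log2 differences from 5.34 to 6.37. Ets1 was also high in both ID2-positive gates, at 1422, 2763 and 1559 in BCL11b+ID2+ and 2516, 939 and 3115 in BCL11b-ID2+ libraries, and it stood at 807 and 375 in DN2. The BCL11b-ID2- gate was the E15.5 population in which every Ets1 value was 23.8 or lower. At E19.5 the same gates held 3139, 3738 and 3578 against 121, 189 and 206, and Ets1 rose there too (log2 difference 4.37 ± 0.24 SE, limma adjusted p = 7.17e-12).

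Limma thus called 1 of 10289 genes higher (0.00972%) and 0 lower (0%) at an adjusted p under 0.05. At an unadjusted p under 0.05 there were 203 higher and 501 lower genes, where edgeR called 0 and DESeq2 335 by adjusted p. As a description that needs no model, 489 genes (4.75%) were higher in all 3 BCL11b+ID2- libraries than in any BCL11b-ID2- library, and 850 (8.26%) were lower. With 3 libraries a side, some genes separate in this way even between gates that do not differ. If the libraries were exchangeable, their order alone would give each side a share that the 4.75% does not exceed, ties aside. The 8.26% exceeds it, but genes of a library are not independent. A lack of overlap is therefore no evidence of a difference by itself. The list counts below are to be set beside these 2 shares. Higher genes made up 36.5% of the genes without overlap. With libraries set to equal nuclear totals the numbers were 354 higher and 1042 lower, and the median log2 difference of all genes went from -0.32 to -0.55. Of the 850 lower genes, 156 had no read in any BCL11b+ID2- library, while 16 of the 489 higher genes had none in any BCL11b-ID2- library. The gate with more lower genes is also the one that detected fewer genes. Thinning to equal reads gave 346 higher and 992 lower genes; the part of RNA quality or input in this balance was not tested. Fewer cells of a type and less RNA per cell cannot be told apart in these bulk samples.

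The 12 leading genes on the higher side included T-lineage genes, namely Ets1, Themis, Thy1, Tcrg-C3 and the sorted gene Bcl11b, and 7 others described further on. Themis, a signalling protein of the developing T-cell receptor pathway, stood at 3343, 2492 and 3128 normalised reads against 7.11, 65.3 and 127 (log2 difference 6.18 ± 1.23 SE, limma adjusted p = 0.118). Thy1, the surface marker of mouse T-lineage cells, stood at 2053, 2793 and 172 against 9.24, 48.2 and 1.35 (log2 difference 6.56 ± 1.36 SE, adjusted p = 0.118). In both genes the lowest positive library exceeded the highest negative one. DN2 cells held 2740 and 3961 for Themis and 405 and 1272 for Thy1, which is the range of the positive gate or close to it. In the ID2-positive gates Themis ran from 63.9 to 2874, with 2874 in 1 BCL11b+ID2+ library and the other 5 at 330 or less. Thy1 was held by both of these gates, at 1821, 662 and 2526 in BCL11b+ID2+ and 205, 685 and 841 in BCL11b-ID2+ libraries.

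Of 26 listed T-lineage transcription factors, 23 passed the filter on low values, 5 were higher without overlap and 0 were lower. These 5 are Ets1, Bcl11b, Lef1, Gata3 and Ikzf2. Without Bcl11b, the sorted gene, the count was 4 of 22. Lef1, a partner of TCF1 at the same DNA sites, stood at 1502, 1399 and 1184 against 148, 1.98 and 14.8 normalised reads (log2 difference 6.14 ± 1.78 SE, limma adjusted p = 0.401). Its positive libraries were closely grouped, and the negative ones ran over a wide range. Gata3, the zinc-finger factor required for early T-cell progenitors, stood at 467, 1413 and 1891 against 62.5, 147 and 268 (log2 difference 2.98 ± 0.94 SE, adjusted p = 0.467). Ikzf2, which encodes HELIOS, was nearer, at 3398, 4274 and 5037 against 3188, 1652 and 2415. Other factors overlapped, and the ones named next were chosen after their values were seen. Tcf7, the gene of TCF1, stood at 3894, 3614 and 7162 against 4051, 1714 and 4239, so BCL11b-ID2- cells held it in all 3 libraries and the ranges overlapped. Runx1 stood at 5754, 3144 and 12972 against 5816, 4446 and 7390. At E19.5 17 of 26 listed factors rose and none fell by the limma test, beside 7.51% higher and 7.42% lower over all genes tested there. Tcf7 was among the rising ones (log2 difference 1.91, limma adjusted p = 1.37e-06).

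The T-cell receptor machinery was uneven. Of 24 listed receptor-complex and signalling genes, 18 passed the filter, 6 were higher without overlap (Themis, Ptcra, Cd3e, Cd3d, Cd3g and Skap1) and 0 were lower. Their median log2 difference was 1.3, against -0.32 over all genes tested. Cd3e, a signalling chain of the receptor, stood at 9916, 3919 and 8270 against 475, 572 and 323 normalised reads, 16.1-fold higher by mean (log2 difference 3.94 ± 1.22 SE, limma adjusted p = 0.465). All libraries of both gates held Cd3e, and their ranges were far apart. Cd3d, its neighbour on chromosome 9, stood at 179, 40.2 and 562 against 0, 0 and 18.9. Cd3g, the third chain of the cluster, stood at 417, 1352 and 994 against 297, 177 and 35.7, a narrower gap. Ptcra, which encodes the surrogate alpha chain of the pre-T-cell receptor, stood at 136, 15.2 and 305 against 0, 0 and 3.37 normalised reads. The other 12 that passed overlapped. Of these, Lck, the receptor-proximal kinase, held 1512, 44.6 and 87 against 78.9, 22.4 and 95.8, and Cd247, the zeta chain of the receptor complex, 12.4, 3.26 and 0 against 0, 0 and 8.09. Both were chosen after their values were seen. At E19.5 Cd247 did separate, with 831, 1153 and 917 against 17.1, 7.23 and 3.84 (limma adjusted p = 1.54e-11).

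Transcripts of the listed receptor-locus genes came mostly from the constant genes Tcrg-C1 and Tcrg-C2 of the gamma chain. Of 18 listed genes of these loci 12 passed the filter, 7 were higher without overlap and 0 lower, with a median log2 difference of 2.89. Tcrg-C2 stood at 8057, 5918 and 12629 against 826, 494 and 677 normalised reads (log2 difference 3.69 ± 1.09 SE, limma adjusted p = 0.413). Tcrg-C1 was the most abundant, at 14309, 13484 and 19435 against 6957, 4284 and 3282. The negative gate therefore held at least 3282 normalised reads of Tcrg-C1, and the gates differed 3.25-fold. Tcrg-C3 was nearly confined by value to the positive gate, at 667, 1573 and 274 against 0, 0.66 and 2.02 (log2 difference 8.59 ± 1.91 SE, adjusted p = 0.18). Its values in the 6 ID2-positive libraries ran from 0.799 to 8.18, so within DN1 it was high in the BCL11b+ID2- gate, and DN2 held 91.6 and 1075. Tcrg-C4 showed another order, with 407, 54.4 and 36.4 against 15.6, 11.9 and 4.05 in the ID2-negative gates but 1887 to 8763 in the ID2-positive ones. Trdc, the constant region of the delta chain, stood at 1163, 1015 and 1223 against 34.1, 128 and 49.9. The beta-chain constant genes overlapped, with Trbc1 at 424, 332 and 986 against 1631, 1160 and 801. Trbc2 stood at 648, 1951 and 4231 against 1743, 549 and 511, by mean above Trdc in both gates. Of 14 genes of the gamma-delta T-cell programme, 10 passed the filter, 2 were higher without overlap, Cd163l1 among them, and 0 were lower. The list's median log2 difference nevertheless was -2.09, with 7 of the 10 negative, so its count and its median differ in sign. Of 11 later alpha-beta thymocyte genes 5 passed, with 1 higher and 0 lower without overlap. Cd163l1, a scavenger-receptor gene of gamma-delta T cells, stood at 52.5, 242 and 12.7 against 6.39, 3.96 and 3.37 normalised reads. Like Tcrg-C4 it was far higher in the ID2-positive gates, at 4384 to 5837 in BCL11b+ID2+ and 1065 to 1815 in BCL11b-ID2+ libraries. Sox13 and Maf, factors of the gamma-delta programme chosen after their values were seen, overlapped at E15.5 and rose at E19.5, Maf with 56.8, 353 and 76 against 1030, 99.7 and 737 at E15.5 and 2320, 2131 and 1607 against 106, 79.6 and 81.6 at E19.5. Constant genes of the gamma locus are alike in sequence, so reads may be split between them, and the sources used here do not say whether strand was used in counting.

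Genes of V(D)J recombination stood with the receptor loci. Of 8 listed genes 6 passed the filter, 4 were higher without overlap and 0 were lower. Rag1, a subunit of the recombinase, stood at 11238, 4815 and 5663 against 1060, 108 and 162 normalised reads (log2 difference 4.66 ± 1.38 SE, limma adjusted p = 0.413). Rag2, its partner, stood at 6554, 3219 and 5026 against 1029, 1761 and 1596, a narrower gap with a well-filled negative gate. Arpp21, a gene expressed along with the recombinase in early lymphocytes, stood at 2420, 4604 and 3546 against 221, 384 and 245. Dclre1c, which encodes the hairpin-opening nuclease ARTEMIS, stood at 167, 201 and 1100 against 98.8, 35.6 and 27.7. For Rag1, Rag2 and Arpp21 DN2 lay near the positive gate, at 3536 and 4371 for Rag1. The ID2-positive gates were low for Rag1, from 6.39 to 434. Cd24a, the heat-stable antigen of immature thymocytes and B cells, followed the same order with 17372, 9588 and 22096 against 7140, 5401 and 6501.

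**Figure D2:**
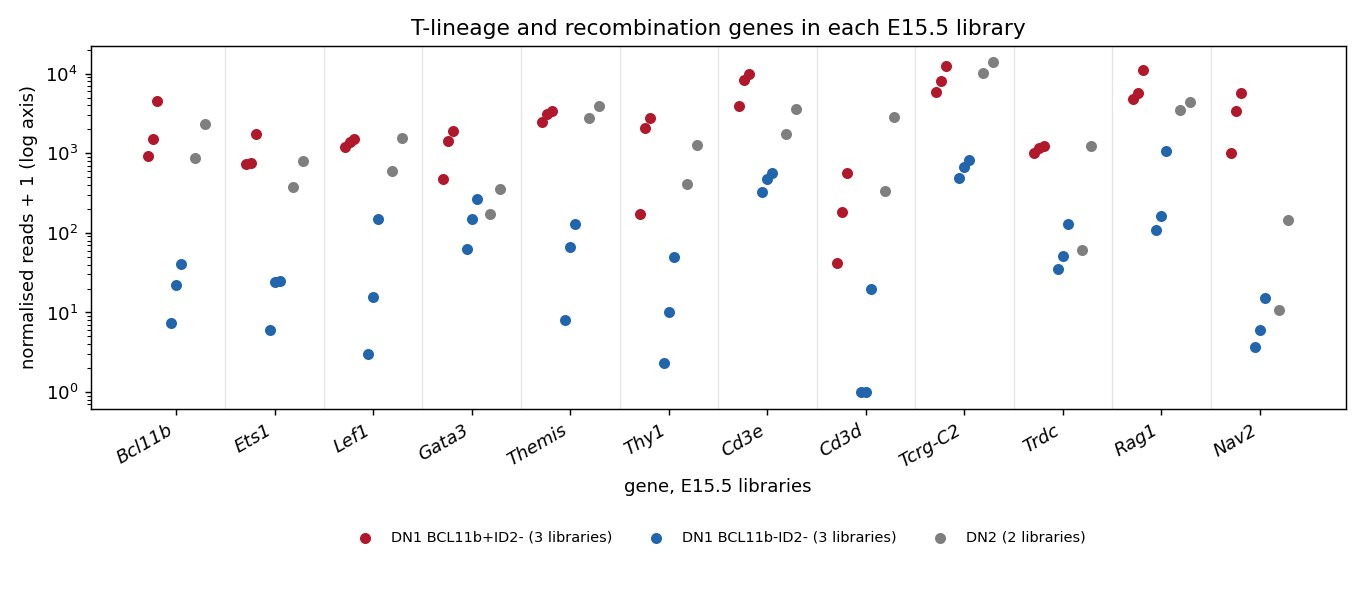
Normalised reads + 1 on a log axis (vertical) for 12 genes (horizontal) in each E15.5 library of the BCL11b+ID2- gate (red), the BCL11b-ID2- gate (blue) and DN2 (grey), 1 point per library. In all 12 genes the 3 red points lie above the 3 blue ones, with the smallest gap in Gata3 (467 against 268) and Cd3d (40.2 against 18.9).

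Several of the strongest differences were in genes outside these programmes. Nav2, which encodes a neuron navigator protein of the cytoskeleton, stood at 1014, 3399 and 5720 against 4.97, 2.64 and 14.2 normalised reads (log2 difference 8.61 ± 1.68 SE, limma adjusted p = 0.118). It was high in BCL11b+ID2+ cells as well, at 1143, 2662 and 4116, and uneven in BCL11b-ID2+ cells, at 4.8, 1023 and 446. At E19.5 Nav2 rose (log2 difference 4.64, limma adjusted p = 1.15e-09). H19, an imprinted long non-coding RNA of fetal tissue, stood at 8462, 5726 and 5114 against 176, 674 and 772. At E19.5 all H19 values were at 182 or less. Syt14, a synaptotagmin, stood at 825, 794 and 1438 against 3.55, 0.66 and 0.674, and Ptprf, a receptor-type tyrosine phosphatase, at 709, 352 and 1017 against 0, 17.8 and 2.02. Both were near 0 in most ID2-positive libraries, which held at most 46.5 for Syt14 and 3.92 for Ptprf. Adam19, a membrane metalloprotease, stood at 373, 351 and 1418 against 29.8, 3.3 and 4.05. Nlrp6, a pattern-recognition receptor, stood at 234, 183 and 723 against 0, 0 and 0.674, and Edaradd, an adaptor of the ectodysplasin receptor, at 184, 304 and 367 against 0, 0 and 2.02. These 2 had no counterpart at E19.5: Nlrp6 was listed at 0 in all 3 BCL11b+ID2- libraries there, and Edaradd stood at 29.5, 34.3 and 19.4 against 23.2, 39.8 and 63.4. At E15.5 Syt14, Ptprf, Nlrp6 and Edaradd passed the filter only with the help of the BCL11b+ID2- gate, so their higher values were partly fixed by it.

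On the lower side stood regulators of progenitors. Of 29 listed progenitor genes 19 passed the filter, 4 were lower without overlap (Mef2c, Bcl11a and Kit among them) and 0 were higher, with a median log2 difference of -2.55. Mef2c, a MADS-box factor of lymphoid-primed progenitors, stood at 1.46, 1.09 and 9.49 normalised reads in BCL11b+ID2- cells against 1317, 997 and 1053 in BCL11b-ID2- cells (log2 difference -8.21 ± 2.14 SE, limma adjusted p = 0.283). The negative libraries were within a narrow range, and the positive ones were all at 9.49 or lower. Bcl11a, the paralogue of Bcl11b that is active in stem and B-lineage cells, stood at 206, 132 and 60.1 against 2063, 2756 and 1802, and was thus reduced in level but still present (log2 difference -4.19 ± 1.86 SE, adjusted p = 0.688). At E19.5 Bcl11a was at 0, 0 and 0.922 against 972, 1035 and 989. Kit, the receptor for stem cell factor, stood at 184, 1602 and 582 against 4197, 3529 and 2903, so BCL11b+ID2- cells held Kit in all 3 libraries.

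Other progenitor genes did not separate at E15.5, and the next were chosen after their values were seen. Hmga2, a chromatin protein of fetal progenitors, stood at 1665, 1538 and 3288 against 1061, 3817 and 1785, and Erg, an ETS factor of stem cells, at 2301, 8659 and 7622 against 7889, 3564 and 9667. At E19.5 both fell: Erg was listed at 0 in all 3 BCL11b+ID2- libraries against 585, 629 and 712 (limma adjusted p = 3.16e-06), and Hmga2 stood at 0, 2.14 and 5.53 against 292, 418 and 368. Whether these differences changed between the stages was not tested, since the tables were normalised separately. Spi1, the gene of PU.1, was listed at 0 in all 3 positive libraries and at 0, 46.2 and 29 in the negative ones. Cd44, the hyaluronan receptor used to define DN1, stood at 7.29, 116 and 381 against 1259, 756 and 2589 (log2 difference -4.23 ± 1.08 SE, adjusted p = 0.261). DN2 held 159 and 343 for Cd44, and the ID2-positive gates 2333 to 13066. For this transcript the BCL11b+ID2- libraries ran from 7.29, far below DN2, to 381, just above it. Every library of the other 3 DN1 gates lay above both DN2 libraries.

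Several myeloid genes were among the lower ones, while others overlapped between the gates. Mpo, the myeloperoxidase of granulocyte precursors, stood at 0.729, 3.26 and 15.8 against 345, 246 and 591 normalised reads (log2 difference -6.21 ± 1.75 SE, limma adjusted p = 0.361). It was at 1.64 or less in all 6 ID2-positive and both DN2 libraries, so among the E15.5 populations it was above 15.8 in the BCL11b-ID2- gate alone. Cd33, a sialic-acid-binding receptor of myeloid cells, stood at 0, 2.17 and 0 against 653, 481 and 1181 (log2 difference -8.94 ± 2.04 SE, adjusted p = 0.18). Ccl9, a chemokine made by myeloid cells, stood at 0, 2.17 and 0 against 1580, 147 and 83. Plek, which encodes the protein kinase C substrate pleckstrin, stood at 2.19, 0 and 3.16 against 466, 1281 and 1205. Cd180, a Toll-like receptor homologue of B cells and myeloid cells, stood at 0, 1.09 and 0 against 130, 724 and 1242. In each of these 5 genes the highest BCL11b+ID2- library lay below the lowest BCL11b-ID2- library. Mpo, Cd33 and Ccl9 passed the filter only with the help of the gate where they are high, so their separation was partly fixed by it. None of the 5 passed the adjusted test at E15.5, and all 5 fell at E19.5 by limma. Plek and Cd180 were not confined to the BCL11b-ID2- gate. The BCL11b-ID2+ libraries held 1329, 107 and 864 for Plek and 1.6, 2125 and 199 for Cd180. For Cd33 they held 2.4, 1.17 and 303, and for Ccl9 0.799, 12.9 and 0.631.

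Of 20 listed genes of myeloid progenitors and granulocytes 6 passed the filter, 3 were lower without overlap (Mpo, Tyrobp and Csf2rb) and 0 higher. Mpo and Csf2rb passed the filter only with the help of the gate where they are high, as did Mrc1 and Adgre1 of the macrophage list below, so their lower values were partly fixed by the filter. The same holds in the other lists for Ptcra, Tcrg-C3, Pou2af1, Bank1, Il6ra and Ier2, each in its higher gate, and for 1 progenitor gene. Of the leading genes it also holds for Cd33, Ccl9, Bpifc, Spns2, Wdpcp and Soga1 on the lower side. On the higher side it holds for Syt14, Edaradd, Nlrp6 and Ptprf. Tyrobp, the gene of the DAP12 signalling adaptor, was listed at 0 in all 3 positive libraries and stood at 6.39, 30.4 and 76.2 in the negative ones. The BCL11b-ID2+ libraries held 270, 19.9 and 245 for Tyrobp. Csf2rb, the shared beta chain of the GM-CSF and IL-3 receptors, stood at 0.729, 0 and 0 against 136, 4.62 and 233. Of 18 macrophage and monocyte genes 11 passed, and 5 were lower without overlap, namely Itgam, Mrc1, Adgre1, Cx3cr1 and Ctss. Cx3cr1 stood at 3.64, 30.4 and 4.75 against 165, 454 and 287, and higher in the BCL11b-ID2+ gate, at 1652, 867 and 1783. Mrc1 was listed at 0 in that gate. Itgam, which encodes the CD11b integrin chain, stood at 0, 1.09 and 0 against 245, 50.8 and 111 normalised reads. Adgre1, the gene of the macrophage marker F4/80, was listed at 0 in all 3 positive libraries and stood at 58.3, 9.24 and 22.9 in the negative ones. Summed over the 16 macrophage and monocyte genes in the table, the level was 143, 1227 and 1888 in the BCL11b+ID2- libraries and 1803, 1391 and 1471 in the BCL11b-ID2- libraries, so the sums overlapped. Of these 16 genes 7 had no read in any BCL11b+ID2- library, C1qa, C1qb, Cd68 and Fcgr1 among them, and C1qa had none in either gate. Others did not follow: Ccr2, a chemokine receptor of monocytes and thymus-seeding cells, stood at 59, 984 and 1790 against 520, 581 and 533. Csf1r, the macrophage growth factor receptor, held 122 in the second positive library, the highest of the 6, and 0 in the other two, against 60.4, 42.9 and 101. C1qc stood at 0, 22.8 and 0 against 136, 0 and 29.7. These 3 were chosen after their values were seen. For the 12 myeloid progenitor and granulocyte genes the sums were 159, 639 and 38 against 853, 901 and 1084, with no overlap, and S100a8 and Csf3r were at 0 in all 6 libraries. The part of admixed mature myeloid cells in these differences was not tested.

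Among lists of other cell types, of 19 erythroid, megakaryocyte and mast-cell genes 4 passed the filter, and Car2, Hbb-bt and Kit were lower without overlap. Hbb-bt, an adult beta-globin gene, stood at 0, 21.7 and 9.49 against 148, 247 and 86.3, and the list's summed level was 992, 3358 and 929 against 7359, 5888 and 4291. Kit, a gene of progenitors too, is a member of this list. Of 16 dendritic-cell genes 7 passed and Id2 was lower; of 20 stromal and epithelial genes 6 passed and 0 were without overlap. Of 14 B-lineage genes 6 passed, with Pou2af1, Cd24a and Il7r higher and Bank1 lower, and Cd24a and Il7r are expressed by early thymocytes as well. The innate lymphoid list had 5 higher (Gzma, Gata3, Rora, Arg1 and Cxcr6) and 3 lower (Id2, Il1rl1 and Itgb7) of 21 that passed. Gzma, a granzyme gene also found in early thymocytes, stood at 3543, 4566 and 1891 against 500, 916 and 229 normalised reads. Cxcr6, at 2.19, 3.26 and 4.75 against 0.711, 1.98 and 2.02, was near 0 in both gates.

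**Figure D3:**
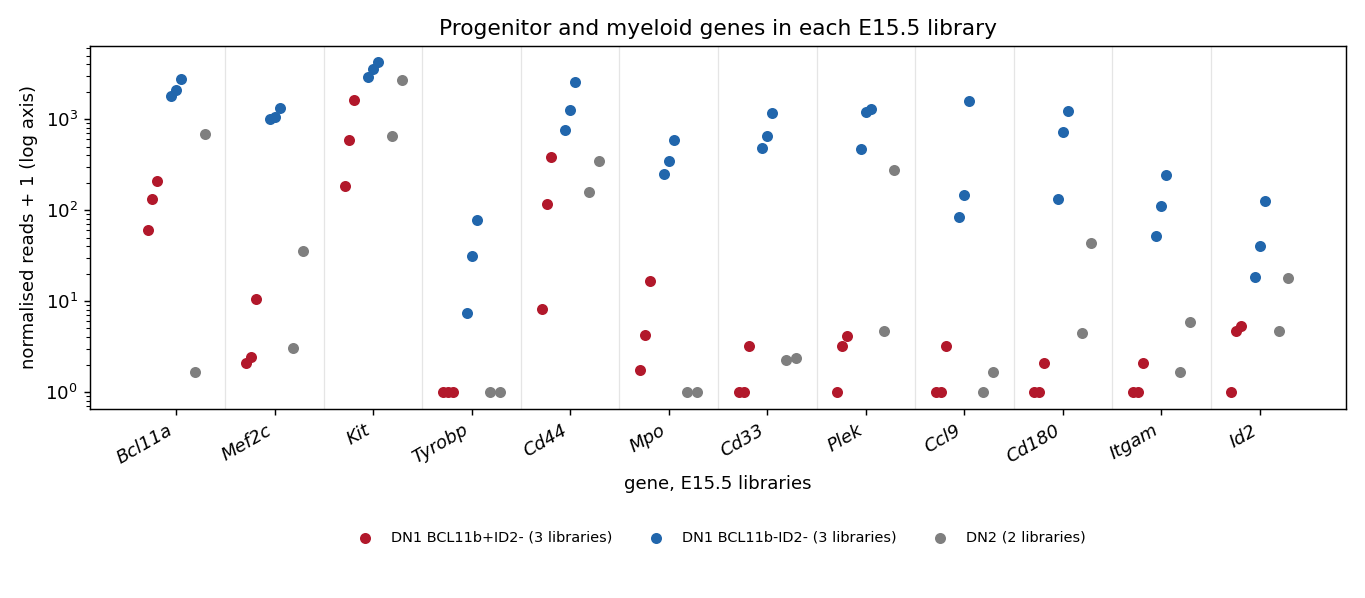
Normalised reads + 1 on a log axis (vertical) for 12 progenitor and myeloid genes (horizontal) in each E15.5 library of the BCL11b+ID2- gate (red), the BCL11b-ID2- gate (blue) and DN2 (grey), 1 point per library. In all 12 genes the 3 red points lie below the 3 blue ones. Tyrobp is listed at 0 in every red library, while Kit stays between 184 and 1602 there.

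Promoters of 2 higher and 2 lower list members are shown so that their letters can be set side by side. They were taken as the list members with the smallest p that have 1 start in the RefSeq table (GRCm38.p6), Bcl11b left aside as the sorted gene. Each run holds the 250 bases before the start, 5′ to 3′ on the gene's strand, and capitals mark matches to any of 6 motifs on either strand. The windows are chr17:46763713-46763962 (minus strand) for Ptcra, chr9:45009612-45009861 (minus) for Cd3e, chr11:87793534-87793783 (plus) for Mpo and chr7:128062390-128062639 (plus) for Itgam. By the GENCODE coordinates used elsewhere here, Mpo begins at 87793581 and Cd3e at 45009627, inside their windows. Part of these 2 windows, most of it for Mpo, thus lies within the gene by that annotation.
Ptcra: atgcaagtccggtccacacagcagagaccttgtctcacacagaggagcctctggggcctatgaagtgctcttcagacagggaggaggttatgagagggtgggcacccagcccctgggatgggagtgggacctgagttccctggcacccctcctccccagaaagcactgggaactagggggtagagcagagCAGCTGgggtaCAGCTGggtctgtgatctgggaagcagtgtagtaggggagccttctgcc
Cd3e: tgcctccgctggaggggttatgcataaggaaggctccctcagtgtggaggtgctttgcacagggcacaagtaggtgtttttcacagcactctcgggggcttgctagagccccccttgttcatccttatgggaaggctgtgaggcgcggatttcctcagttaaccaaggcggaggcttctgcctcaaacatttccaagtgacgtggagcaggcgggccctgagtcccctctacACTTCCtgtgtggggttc
Mpo: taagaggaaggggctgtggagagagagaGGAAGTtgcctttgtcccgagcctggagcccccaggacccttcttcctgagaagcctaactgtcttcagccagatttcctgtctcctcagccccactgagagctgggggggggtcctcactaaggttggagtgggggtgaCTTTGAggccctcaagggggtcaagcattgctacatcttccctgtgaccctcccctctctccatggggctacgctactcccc
Itgam: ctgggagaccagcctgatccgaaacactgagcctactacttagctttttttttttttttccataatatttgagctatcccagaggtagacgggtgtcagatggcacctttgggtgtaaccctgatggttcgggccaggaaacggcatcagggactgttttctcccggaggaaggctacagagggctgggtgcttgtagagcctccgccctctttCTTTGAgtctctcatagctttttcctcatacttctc
The letters searched for ETS-family proteins were GGAAGT, for RUNX proteins TGTGGT, and for TCF with LEF proteins CTTTGA. Those for GATA proteins were AGATAA, those for basic helix-loop-helix proteins (the E box) CAGCTG, and those for C/EBP proteins TTGCNNAA. Ptcra held 2 E boxes, starting 60 and 49 bases before the start, where 13% of the 32851 listed promoters hold at least 1. Cd3e held 1 ETS match 18 bases before its start, and Mpo 1 ETS match at 222 and 1 TCF and LEF match at 82 bases. Itgam held 1 TCF and LEF match at 36 bases. ETS matches occur in 19.7% and TCF and LEF matches in 13.8% of all listed promoters, so ETS letters were found in 1 higher and 1 lower gene alike. RUNX, GATA and C/EBP letters, which 14%, 9.99% and 9.56% of promoters hold, were not in these 4 windows. Ets1 and Thy1 are named without a promoter.

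Of 20 listed Notch pathway genes 14 passed the filter, 0 were higher and 1 was lower without overlap. The list's median log2 difference was -0.19. Over all genes 4.75% were higher and 8.26% lower, and the list holds too few genes to be read against these shares. The lower one was Mfng, a fringe glycosyltransferase that modifies Notch receptors, at 3.64, 0 and 7.91 against 64.7, 316 and 33.7 normalised reads. Notch1, chosen after its values were seen, stood at 6999, 1209 and 1502 against 4381, 1372 and 1241, with full overlap. Il2ra, the CD25 chain whose surface appearance marks DN2, stood at 2402, 564 and 3226 against 3997, 1979 and 1448. DN2 libraries held 28887 and 29785, so both DN1 gates lay far below DN2 for this gene.

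Among E and Id proteins, 4 of 7 listed genes passed the filter, and Id2, given above, was the one without overlap. Tcf3, which encodes the E2A proteins, stood at 174, 272 and 39.6 against 452, 213 and 252 normalised reads. Tcf12, which encodes HEB, stood at 1394, 1633 and 826 against 165, 700 and 1093, and Tcf4, which encodes E2-2, at 981, 656 and 404 against 1425, 834 and 502. The gates overlapped for all 3, and at E19.5 Tcf12 rose (log2 difference 2.31, limma adjusted p = 9.03e-08).

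Of 20 cytokine-receptor genes 19 passed, 3 were higher (Il2rg, Tgfbr1 and Il7r) and 3 lower (Il6ra, Il6st and Csf2rb) without overlap. Il2rg, the shared chain of the IL-2 and IL-7 receptors, stood at 2271, 1444 and 2263 against 167, 527 and 495 normalised reads (log2 difference 2.47 ± 0.85 SE, limma adjusted p = 0.52). Il7r, the specific chain of the IL-7 receptor, stood at 1168, 1283 and 1385 against 980, 485 and 464, a smaller gap. Il6st, the gp130 signalling chain, stood at 313, 12 and 0 against 894, 685 and 948. Of 23 homing genes 21 passed, with Selplg and Cxcr6 higher and 3 lower, Cd44 and Itgb7 among them. Over all genes 4.75% were higher and 8.26% lower, and both lists hold too few genes to be read against these shares. Selplg, the P-selectin ligand that thymus-seeding cells use, stood at 390, 161 and 153 against 9.24, 12.5 and 12.8.

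Summed over the 30 cell-cycle genes, the level was 74343, 67628 and 81440 in the BCL11b+ID2- libraries and 64766, 49449 and 60244 in the BCL11b-ID2- libraries. All 30 listed genes passed the filter, 3 were higher without overlap and 0 lower, beside 4.75% higher and 8.26% lower over all genes. Top2a, the topoisomerase of dividing cells, stood at 9775, 13666 and 9964 against 8508, 4484 and 5000 normalised reads, 1.86-fold higher by mean (limma adjusted p = 0.665). Mki67, the proliferation marker, overlapped with 12454, 8769 and 16148 against 10192, 10283 and 11837. Ccnd3, the D-type cyclin of early thymocytes, stood at 9.47, 217 and 661 against 0.711, 0 and 3.37. Glycolysis genes were split: Hk2, a hexokinase, stood at 4.37, 5.44 and 3.16 against 358, 502 and 832, and Pkm, the pyruvate kinase, at 358, 1134 and 951 against 247, 185 and 150. Of 15 listed genes of this pathway 3 were lower (Hk2, Tpi1 and Slc2a1) and 1 higher, and its median log2 difference of 0.37 ranged from -0.06 to 0.65 over the alternatives. Of 17 immediate-early and stress genes 11 passed, with Dusp1 and Hspa8 higher and Ier2 lower and a median log2 difference of -1.21. The cell-cycle, glycolysis and stress lists hold too few genes to be read against the shares over all genes. The part of handling in the results was not tested.

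**Figure D4:**
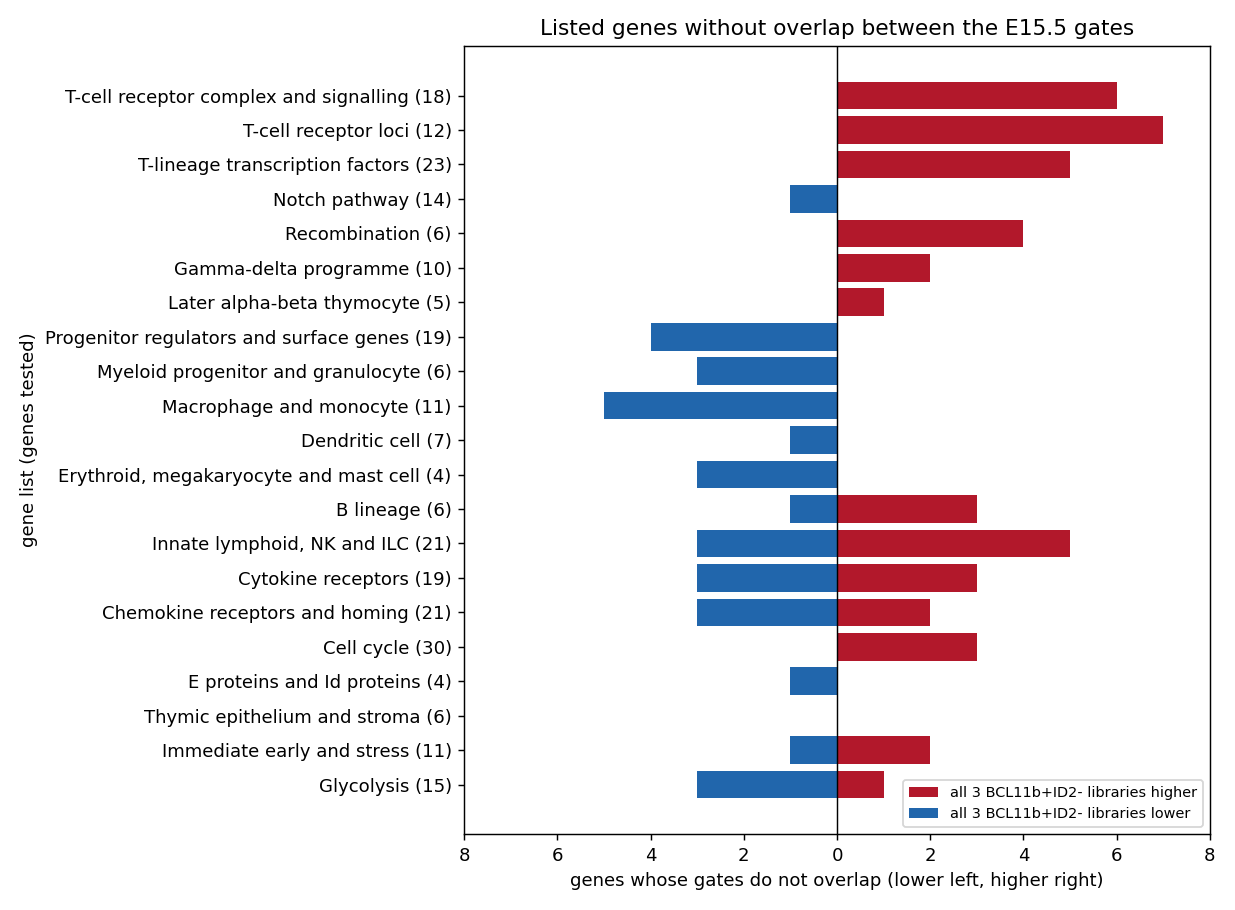
Number of listed genes (horizontal axis) that were higher in all 3 BCL11b+ID2- libraries (red, to the right) or lower in all 3 (blue, to the left), for the 21 gene lists (vertical axis, with the number tested). The T-cell receptor loci have 7 higher and 0 lower of 12, and the macrophage and monocyte list 5 lower and 0 higher of 11, beside 4.75% higher and 8.26% lower over all genes.

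The gates at E19.5 give the same contrast in other libraries, with 1040 genes higher (7.51%) and 1027 lower (7.42%) of 13840 by limma. Of the 489 genes higher at E15.5 without overlap, 467 were tested at E19.5, where 99 (21.2%) rose and 28 (6%) fell. Of all 9935 genes tested at both stages, 8.24% rose and 7.86% fell at E19.5. Of the 850 lower genes, 835 were tested, and 125 (15%) fell while 36 (4.31%) rose. Seen from E19.5, the shared genes were 12.1% of those that rose and 16% of those that fell. Most genes that separated the gates at E15.5 were therefore not called at E19.5.

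Of the 12 leading genes on each side, 8 higher and 8 lower ones were called the same way at E19.5 and none the other way. The higher ones that were called are Ets1, Nav2, Themis, Bcl11b, Thy1, Tcrg-C3, Adam19 and Ptprf, where Bcl11b follows from the sort at both stages and is no result. The lower ones include Plek, Bpifc, Cd33, Spns2, Ccl9, Cd44 and Cd180. Spns2, a sphingosine-1-phosphate transporter, stood at 0.729, 2.17 and 0 against 127, 1434 and 77.6 normalised reads at E15.5. Bpifc, a lipid-binding protein of the BPI family, stood at 1.46, 0 and 0 against 190, 156 and 170, with closely grouped values in the negative gate. Not called at E19.5 were Gxylt1, Suco, Wdpcp and Soga1 on the lower side. Gxylt1, a glycosyltransferase that extends the O-glucose of Notch receptors, stood at 10.9, 44.6 and 1.58 against 521, 1267 and 1273 at E15.5. At E19.5 Gxylt1 overlapped, with 266, 129 and 227 against 195, 211 and 108.

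**Figure D5:**
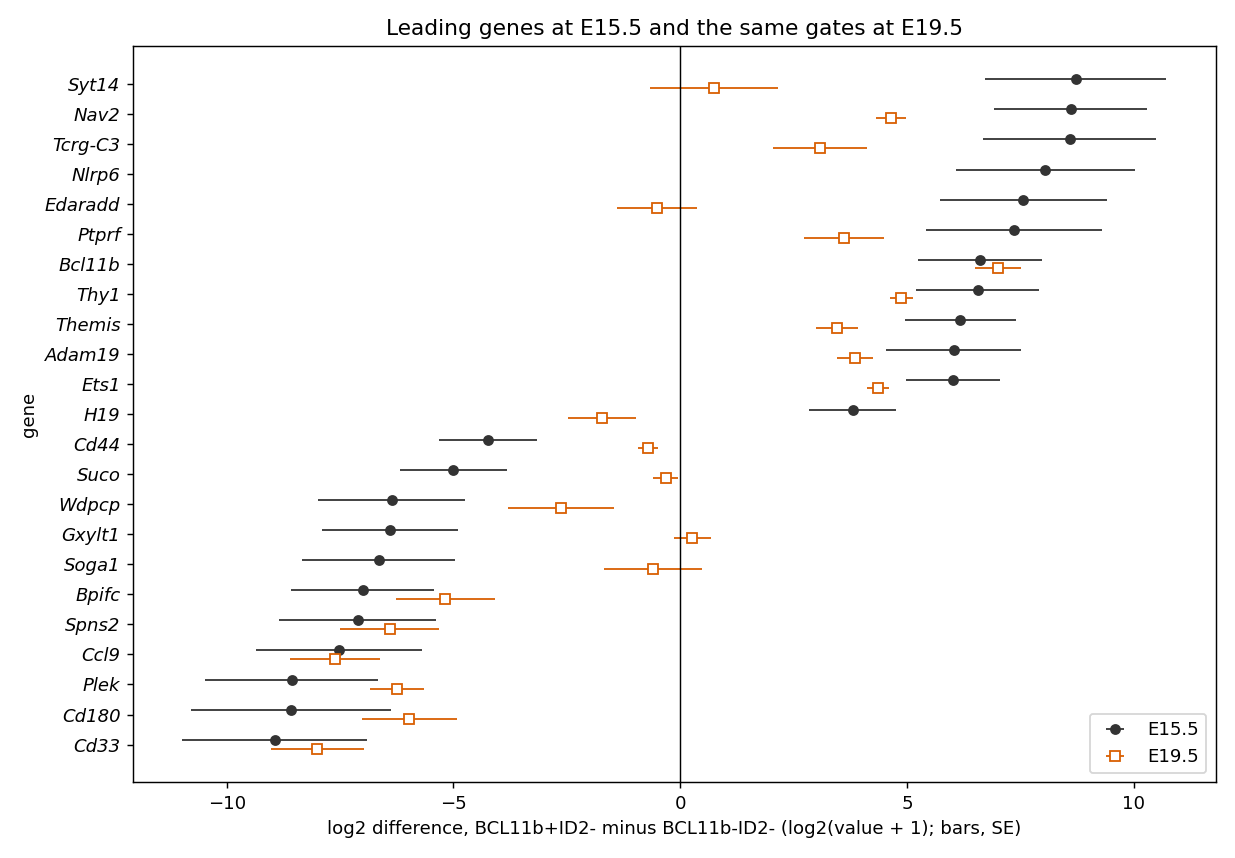
Log2 difference between BCL11b+ID2- and BCL11b-ID2- (horizontal axis, log2(value + 1), bars are SE) for 12 leading higher and 11 leading lower genes (vertical axis) at E15.5 (filled circles) and E19.5 (open squares). For Bcl11b, Ccl9, Spns2, Cd33, Bpifc, Cd180 and Plek the bars of the 2 stages overlap, while H19, Edaradd and Gxylt1 lie on the other side of 0 at E19.5, without a call. Nlrp6 was not tested at E19.5 and has no square.

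The same BCL11b contrast among ID2-positive DN1 cells was set against that among ID2-negative ones. The interaction called 0 of 10289 genes (0%) by limma, with 662 at an unadjusted p under 0.05 and a smallest adjusted p of 0.454, while edgeR called 0 and DESeq2 392. For Ets1 the contrast was larger by 6.11 ± 1.47 (log2, SE) among ID2-negative cells, since BCL11b-ID2+ cells held Ets1. For Gzma the contrasts differed by 6.67 ± 1.46 (limma adjusted p = 0.454), with 4025, 4128 and 2567 in BCL11b-ID2+ and 1931, 222 and 26.2 in BCL11b+ID2+ libraries. For Bcl11b itself the contrasts differed by 1.14 ± 1.93. None of these passed the adjusted test, so no gene can be called particular to the ID2-negative gates.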

How the data were processed

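Sorted populations of the embryonic thymus were profiled by RNA-seq. Per the labels' protocols, RNA was extracted with an RNeasy Plus micro kit and amplified with an Ovation RNA-seq System V2. Per the submitters' processing notes, Trim Galore 0.50, STAR 2.6.0a, DESeq2 1.18.1 and GRCm38 were used. The deposited values are a signal, reads per gene normalised by the authors with DESeq2, 1 table for each stage. All values were whole reads (100% within 0.01 reads) once divided by the value of 1 read. E15.5 columns were matched to samples by barcode number.

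The filter kept genes that reached 10 in 3 or more libraries of a table (10289 of 19404 at E15.5, 13840 of 26244 at E19.5). Log2(value + 1) of all 14 E15.5 libraries was fitted by population with limma 3.58.1 (trend, robust), in R 4.3.3, with Benjamini-Hochberg adjusted p under 0.05. E19.5 (18 libraries) was fitted alike. Alternatives were other pseudocounts, filters and scalings, the 6 libraries alone, a replicate block, library weights, edgeR 4.0.16, DESeq2 1.42.0 and each library left out; thinning was added after seeing the data.

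Named genes are those that passed, the 12 with the smallest p per direction without overlap (mean of at least 100 in the higher gate, unadjusted p under 0.05, no predicted, mitochondrial or ribosomal protein genes or pseudogenes), up to 5 members without overlap of each of 21 gene lists (otherwise the 2 most abundant), and the sorting and E-protein genes. The comparison, the lists and the rule were chosen with earlier results of these data known. Coordinates are GENCODE vM21 (GRCm38). Some genes that met the rule are counted but not reported here by name.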

Additional observations from a re-analysis of the deposited data

Results flagged for a closer look

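For 5 of the genes reported here, the 3 BCL11b+ID2- libraries lay on one side of the 3 BCL11b-ID2- libraries at E15.5 and on the other side at E19.5. The difference between the stages was not tested, because each stage was normalised in its own table, and none of the 5 passed the limma test at E15.5. Rag2, a recombinase subunit, had a log2 difference of 1.73 at E15.5 (3.37-fold higher by mean) and stood at 46.9, 17.1 and 22.1 against 128, 217 and 199 normalised reads at E19.5, where it fell (limma adjusted p = 0.015). Cd24a had 1.29 at E15.5 and fell at E19.5, with 293, 470 and 577 against 1092, 1046 and 1166 (adjusted p = 0.0435). Cx3cr1 had -4.89 at E15.5, and 163, 84.6 and 32.3 against 11, 5.06 and 24 at E19.5 (adjusted p = 0.0963). Itgb7, an integrin chain, had -4.72 at E15.5, and 305, 232 and 405 against 134, 223 and 204 at E19.5 (adjusted p = 0.202). Il6st had -5.71 at E15.5, and 491, 488 and 220 against 168, 211 and 168 at E19.5 (adjusted p = 0.124).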

How the results depend on the processing

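The single E15.5 call became 0 with a pseudocount of 8, with no filter, with TMM scaling, with equal totals without mitochondrial genes, with the 6 libraries alone, with a replicate block and with edgeR. It became 6 with library weights (Bcl11b, Ets1, Nav2, Themis and Thy1 higher, Plek lower) and 335 with DESeq2 (113 higher, 222 lower). Leaving out 1 library gave 0 to 6 calls; the 6, without BCL11b+ID2- replicate 1, were mitochondrial genes. The cause was not tested. The interaction went from 0 to 392 calls with DESeq2 and to 0 to 1 when 1 library was left out (Gzma, without BCL11b+ID2+ replicate 1). Numbers without overlap rose to 757 to 1037 higher and 1318 to 1593 lower genes with 1 library left out, as 5 libraries overlap less by construction. The E19.5 counts stayed within 1.5 times in each alternative run (1441 to 2371). None of the 85 named genes changed sign in any of 17 alternatives. Most of them were named because their gates do not overlap, so this was largely fixed in advance and does not speak for robustness. Of the 21 list medians, 5 changed sign (later alpha-beta, innate lymphoid, homing, stroma and glycolysis). Libraries of the same replicate number had deviations with correlations near 0 (-0.00623 to 0.00987 for E15.5 pairs, 0.00202 to 0.0586 for E19.5 pairs). Of 6 libraries a stage, 4 and 3 were closest to their own number. The number was not taken as a pairing, but 3 pairs a stage cannot show that such libraries share no source. The replicate block gave 0 calls at E15.5. Depth limits the low genes: 1 read was worth 0.66 to 1.58 normalised reads.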
